A study of Mus musculus with 41 samples.

Results

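The 10 genes described here carry out or control the making of fatty acids and triglyceride: Acly, Acaca, Acacb, Fasn, Thrsp, Elovl6, Scd1, Dgat2, Srebf1 and Mlxipl. They were chosen by their known roles, with earlier results of these data known, from 21755 protein-coding genes annotated on mouse chromosomes 1 to 19 and X. For each gene it was asked in which cell types the chromatin around it lay within a peak of lactylated lysine 18 of histone H3 (H3K18la), and how this compared with 3 better-known histone post-translational modifications (hPTMs). Those were H3K27ac, found at active promoters and enhancers, H3K4me3, found at active promoters, and H3K27me3, the mark of Polycomb-repressed chromatin.

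The profiles came from CUT&Tag, in which an antibody brings a transposase to a histone mark so that nearby DNA is cut and tagged. The 41 libraries formed 24 groups of 1 cell type and 1 mark, 17 with 2 libraries and 7 with 1. The authors merged the libraries of a group before peak calling, so each group has a single peak list. No value below has a replicate error, and differences between lists were described rather than tested unless stated.

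All samples of the 8 cell types were labelled control, and all were prepared in buffers with sodium butyrate, an inhibitor of histone deacetylases. White adipocytes (ADIPO) came from the fat of 10-week-old AdipoCre-NuTRAP mice, in which an adipocyte Cre driver tags the nuclei so that they can be captured on beads. Gastrocnemius muscle (GAS) was whole muscle of mice labelled C57BL/6 (C57Bl6/J in the study's methods) aged 8 to 12 weeks and therefore also held blood vessel, connective tissue and immune cells. Post-ischemia macrophages (PIM) were sorted from the calf muscle of C57BL/6 mice of the same age range 2 days after hind-limb ischemia. Bone marrow-derived macrophages (BMDM), primary myoblasts (MB) and the myotubes made from these myoblasts (MT) were C57BL/6 cultures. Embryonic stem cells of the single line E14 were kept primed with serum and LIF, here mESC-ser, or naive with 2i and LIF, here mESC-2i. They were processed as whole cells, the other cell types as nuclei. H3K18la was profiled in all 8 cell types, H3K27me3 in 7 (not ADIPO), H3K27ac in ADIPO, GAS, BMDM, PIM and mESC-ser, and H3K4me3 in GAS, PIM, mESC-ser and mESC-2i.

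De novo lipogenesis turns surplus carbohydrate into stored fat. Citrate exported from mitochondria is split by ATP-citrate lyase (Acly) to acetyl-CoA, which the acetyl-CoA carboxylases (Acaca, Acacb) carboxylate to malonyl-CoA, and fatty acid synthase (Fasn) builds palmitate from it. Elovl6 lengthens palmitate, Scd1 puts in a double bond, and Dgat2 joins the last acyl chain to make triglyceride. SREBP-1 (Srebf1) and ChREBP (Mlxipl) are the transcription factors best known for switching these genes on in response to insulin and to glucose, and Thrsp (Spot 14) is a small lipogenic protein abundant in fat.

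A gene was counted as having a promoter peak when at least 1 bp of a peak lay within 2 kb of any of its annotated transcription start sites (TSS). Its locus was the gene body with 10 kb on each side, and locus coverage was the share of these bases inside peaks. The strength of a peak was the rank of its total signal, the fragment coverage summed over the peak, within its own list. In mm10 coordinates, 4 of the genes lie on chromosome 11, namely Acly (chr11:100476353-100528000, minus strand), Acaca (chr11:84129672-84401651, plus), Fasn (chr11:120805846-120824547, minus) and Srebf1 (chr11:60199089-60222581, minus). Acacb (chr5:114146535-114250761, plus) and Mlxipl (chr5:135089890-135138382, plus) are on chromosome 5, and Thrsp (chr7:97412938-97417730, minus) and Dgat2 (chr7:99153658-99182719, minus) on chromosome 7. Elovl6 is at chr3:129532355-129638495 (plus) and Scd1 at chr19:44394455-44407879 (minus). Because the genes have several annotated TSS, their promoter windows came to 4.21 to 20.3 kb in all (median 13 kb) against a median of 6.94 kb over all protein-coding genes. A larger window can be overlapped more easily, and its part in the counts below was not tested.

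The reference promoter sequences matched 8 of the 10 genes, with 11 start sites in all. Of these, 5 are shown because they are the starts on which the results turn: Fasn and Srebf1 from among the loci most fully covered in ADIPO, both starts of Mlxipl, which lie in peaks of H3K18la, H3K27me3 or both, and an internal start of Acaca that had H3K18la in ADIPO alone. They are the 250 bases before the RefSeq start, build GRCm38 (mm10), written 5′ to 3′ on the gene's strand, and none of these bases lies in an annotated exon. Capitals mark matches on either strand to the E-box CACGTG, the NF-Y box CCAAT, the GC box GGGCGG or the sterol regulatory element core TCACNCCAC.
Fasn, chr11:120824548-120824797, minus strand: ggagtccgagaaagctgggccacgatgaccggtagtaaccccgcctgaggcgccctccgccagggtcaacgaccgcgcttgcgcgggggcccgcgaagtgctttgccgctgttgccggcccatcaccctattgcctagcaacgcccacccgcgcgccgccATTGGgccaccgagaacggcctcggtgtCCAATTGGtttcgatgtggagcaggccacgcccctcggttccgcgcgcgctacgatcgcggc
Srebf1, chr11:60210472-60210721, minus strand: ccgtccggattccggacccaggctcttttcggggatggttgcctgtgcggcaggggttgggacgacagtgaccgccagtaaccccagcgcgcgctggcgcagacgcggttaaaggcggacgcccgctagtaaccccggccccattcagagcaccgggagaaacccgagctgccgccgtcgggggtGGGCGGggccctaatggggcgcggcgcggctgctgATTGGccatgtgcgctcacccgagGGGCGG
Mlxipl upstream start, chr5:135089640-135089889, plus strand: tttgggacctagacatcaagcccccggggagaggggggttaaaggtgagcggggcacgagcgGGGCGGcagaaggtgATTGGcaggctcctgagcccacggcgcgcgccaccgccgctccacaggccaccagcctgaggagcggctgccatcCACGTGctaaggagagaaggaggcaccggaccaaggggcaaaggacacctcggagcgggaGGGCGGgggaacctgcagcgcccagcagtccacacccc
Mlxipl main start, chr5:135106641-135106890, plus strand: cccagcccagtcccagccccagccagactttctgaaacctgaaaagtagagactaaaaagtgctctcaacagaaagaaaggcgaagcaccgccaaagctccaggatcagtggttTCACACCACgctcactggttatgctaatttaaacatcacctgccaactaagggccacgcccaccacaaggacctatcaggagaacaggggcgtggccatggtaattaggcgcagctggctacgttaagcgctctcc
Acaca internal start, chr11:84195188-84195437, plus strand: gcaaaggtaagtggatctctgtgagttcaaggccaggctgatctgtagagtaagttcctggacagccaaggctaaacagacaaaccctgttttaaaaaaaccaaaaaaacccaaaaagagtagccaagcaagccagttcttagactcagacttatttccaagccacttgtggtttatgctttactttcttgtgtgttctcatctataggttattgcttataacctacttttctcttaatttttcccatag

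The Fasn stretch held 3 NF-Y boxes, 2 of them overlapping, and lay wholly in H3K18la peaks of ADIPO, MT, mESC-ser and mESC-2i. The Srebf1 stretch held 2 GC boxes and 1 NF-Y box and lay wholly in H3K18la peaks of 5 cell types. The upstream Mlxipl stretch held the 1 E-box found in the 11 windows, which is the motif that ChREBP itself and SREBP-1 are known to bind, and it lay wholly in H3K27me3 peaks of all 7 cell types profiled for that mark. The Acaca stretch held none of these letters. Over the 300-base reference windows (250 bases before to 50 after the start), NF-Y boxes occurred in 7 of the 11 windows of these genes against 37.4% of 32851 promoters. GC boxes occurred in 4 of 11 against 35.7%, the E-box in 1 of 11 against 7.15%, and the sterol element core in 1 of 11, at the main Mlxipl start, against 1.24%. A match is a string of letters and not evidence of binding.

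White adipocytes were the only cell type in which all 10 genes had an H3K18la promoter peak, and all 10 had an H3K27ac promoter peak there too. Across the genome 44.7% of protein-coding genes had an H3K18la promoter peak in ADIPO and 46.1% an H3K27ac one. The next counts were 9 of 10 genes in mESC-ser (all genes 33.4%) and 8 of 10 in mESC-2i (37.8%). A peak was found at 7 genes in GAS (36.1%), at 5 in MT (34.8%) and at 5 in PIM (37.8%). BMDM had 1, at Dgat2 (18.5%), and MB had none (11.1%). The BMDM and MB lists rest on 1 library each and covered the fewest bases of the H3K18la lists, 22.6 Mb and 40.5 Mb of the genome against 68.9 to 137 Mb elsewhere. With only the 5000 strongest peaks of each list, all 10 genes kept a peak in ADIPO (9.16% of all genes), 4 in mESC-2i (14%), 3 in mESC-ser (12.3%) and 3 in GAS (8.3%). The count was 1 in PIM (7.69%), 1 in BMDM (4.72%) and none in MT (6.38%) or MB (4.51%), near the share of all genes.

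Summed over cell types, 45 of 80 gene and cell type combinations (56.3%) had an H3K18la promoter peak, against 31.8% over all protein-coding genes. For H3K27ac the count was 34 of 50 (68%, all genes 43.2%), and for H3K4me3 36 of 40 (90%, all genes 58.5%). For H3K27me3 it was 17 of 70 (24.3%), close to the 21.7% of all genes.

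**Figure D1:**
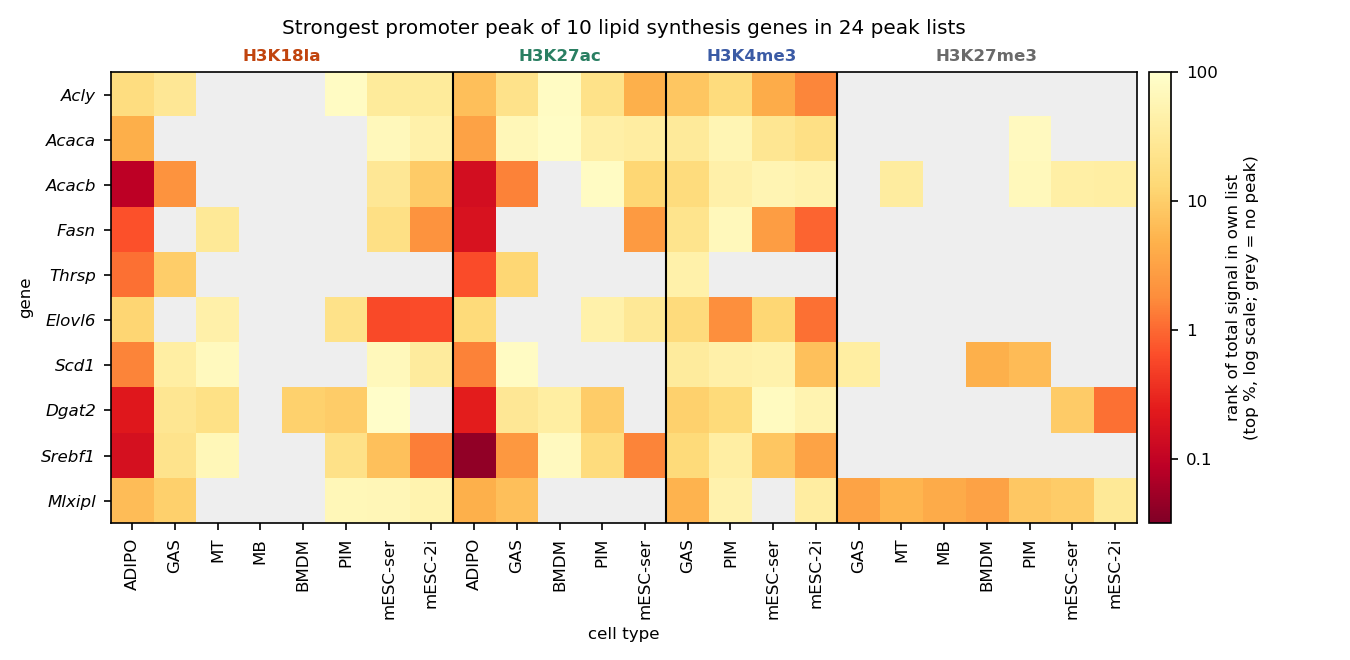
Strongest promoter peak of each gene (rows) in each of the 24 peak lists (columns, grouped by mark), coloured by the rank of its total signal within its own list as a top percentage on a log scale. Grey marks the absence of a peak; the ADIPO columns of H3K18la and H3K27ac are filled for all 10 genes, while Mlxipl is the one gene filled in all 7 H3K27me3 columns.

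H3K27ac promoter peaks were found at 8 genes in GAS (all genes 47%), 6 in PIM (48.8%), 6 in mESC-ser (40.2%) and 4 in BMDM (34%). H3K4me3 was present at all 10 in GAS (64.2%), at 9 in PIM (59.4%), at 8 in mESC-ser (48.8%) and at 9 in mESC-2i (61.8%). H3K27me3 was present at 2 genes in GAS (23.9%), 2 in MT (20.1%), 1 in MB (12.5%), 2 in BMDM (19.2%), 4 in PIM (26.4%), 3 in mESC-ser (27%) and 3 in mESC-2i (22.5%). H3K4me3 without H3K18la was found at 3 of the 10 promoters in GAS (Acaca, Fasn and Elovl6) against 30.1% over all genes, and at 4 in PIM (Acaca, Acacb, Fasn and Scd1) against 23.2%. It was found at none of the 10 in mESC-ser (all genes 20.8%) and at 1 in mESC-2i, Dgat2 (27.2%). The reverse, H3K18la without H3K4me3, occurred once in these 4 cell types, at Mlxipl in mESC-ser, against 1.63% to 5.41% of all genes.

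**Figure D2:**
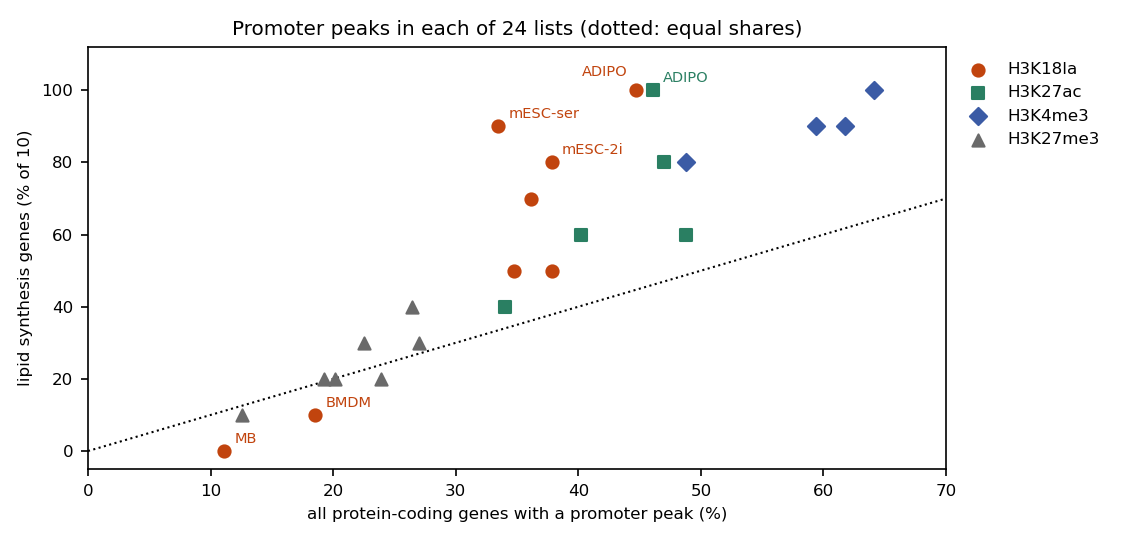
Share of the 10 lipid synthesis genes with a promoter peak (vertical axis, percent) against the share of all protein-coding genes (horizontal axis, percent), 1 point for each of the 24 lists. The dotted line marks equal shares; both ADIPO lists lie at 100% of the 10 genes, and the H3K27me3 lists lie at 10% to 40%.

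The ADIPO peaks were also strong and wide. Of the 10 genes, 8 had an H3K18la promoter peak among the strongest 10% of the ADIPO list, which held for 5.35% of all genes, and 9 had such an H3K27ac peak, against 6.95% of all genes. By comparison 4 genes had a peak in the strongest 10% of the mESC-2i H3K18la list (6.85% of all genes), 2 in GAS (6.49%), 2 in mESC-ser (5.86%), 1 in PIM (5.19%) and none in MT (4.53%), MB (1.6%) or BMDM (1.88%). The median width of the strongest ADIPO promoter peak was 13.2 kb over these genes (range 4485 to 35731 bp) and 1.97 kb over the 9732 genes with one. Widths above 10 kb were found at 7 of the 10, as at 4.15% of those 9732 genes. When strength was ranked by the maximum signal in a peak instead of its total, 5 and not 8 genes had an H3K18la peak in the strongest 10% (5.19% of all genes), and 6 and not 9 an H3K27ac peak (7.29%).

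The enzymes of the first steps differed widely among themselves. At Acacb, the carboxylase isoform tied to the mitochondrial surface, the ADIPO peak was 35731 bp wide and ranked 25 of 28752 peaks. It reached to within 2 kb of a start of the neighbouring gene Ung, so that signal at its far end cannot be assigned to Acacb alone. GAS held a 9562 bp Acacb peak ranked 784 of 36813, and mESC-ser and mESC-2i held peaks of 3349 and 18880 bp. MT, MB, BMDM and PIM had none. H3K4me3 lay within 2 kb of the first Acacb start in GAS only. In all 4 cell types profiled it lay at a start 29371 bp further in, where the GAS and mESC-ser H3K18la peaks just named also lay. H3K27me3 promoter peaks were found at Acacb in 4 of 7 cell types (MT, PIM, mESC-ser and mESC-2i). The PIM one, of 3551 bp (rank 10576 of 15798), lay over the first start.

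Fasn was the most completely covered of the 10 loci, with 97.8% of its bases in ADIPO H3K18la peaks and 98.6% in mESC-2i. The other cell types had 24.7% (mESC-ser), 18.9% (MT), 3.89% (GAS) and no covered base (MB, BMDM, PIM). Only 0.023% of protein-coding genes had a higher share in ADIPO. The widest ADIPO peak spanned 28208 bp from 0.733 kb after the coding start (rank 193 of 28752), and another of 9889 bp (rank 360) lay over that start. The mESC-2i peak of 44719 bp (rank 419 of 19908) overlapped both. The wide ADIPO peak also came within 2 kb of a Dus1l start, and the locus includes part of Ccdc57, so its coverage is not that of Fasn alone.

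Acly had H3K18la at its promoter in 5 of 8 cell types. Its ADIPO peak of 4485 bp ranked 4806 of 28752, the lowest of the 10 genes. Locus coverage was 30.7% in mESC-2i, 22% in ADIPO, 10.7% in mESC-ser, then 6.04% (GAS) and 1.89% (PIM), and MT, MB and BMDM had no peak. H3K27ac lay at its promoter in all 5 cell types profiled for that mark and H3K4me3 in all 4, while no base of the locus lay in an H3K27me3 peak in any of 7.

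Thrsp had an H3K18la promoter peak in 2 cell types, the fewest of the 10 genes. Its promoter had H3K18la and H3K27ac in ADIPO (12247 bp, rank 325, and 8340 bp, rank 142 of 23089) and in GAS (7234 and 9337 bp). H3K4me3 was found at Thrsp in GAS only, among the 4 cell types profiled, and H3K27me3 in none of 7. GAS is whole muscle, and in its H3K18la list the adipocyte marker Fabp4 also had a promoter peak, with 5 other adipocyte markers without one. Whether fat cells within the muscle contributed was not tested.

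**Figure D3:**
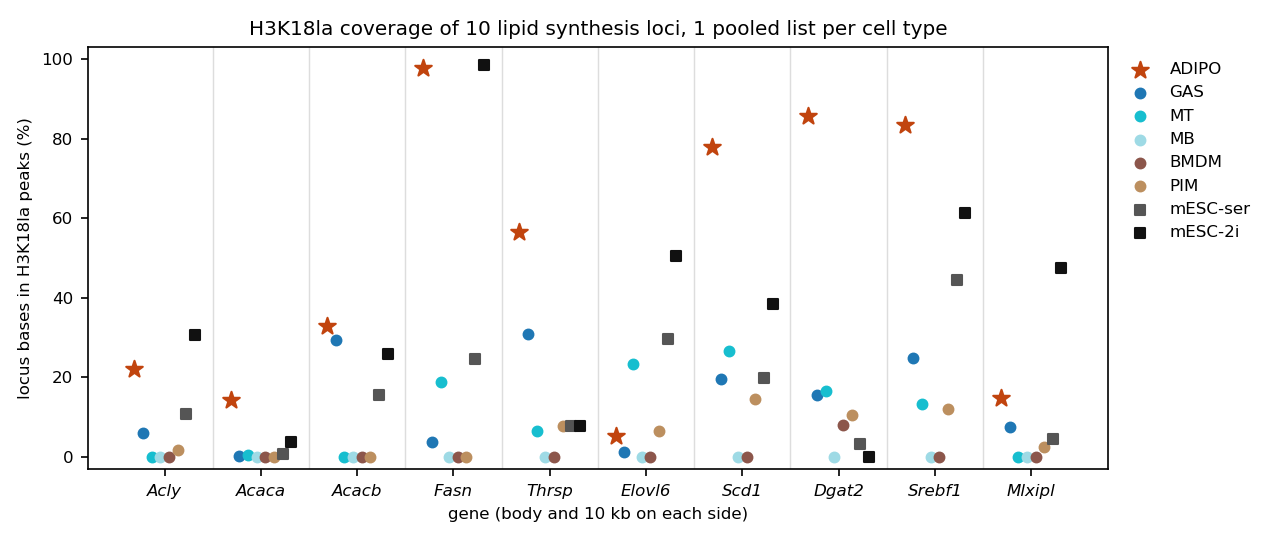
Share of locus bases inside H3K18la peaks (vertical axis, percent) for each gene, with the gene body and 10 kb on each side as the locus and 1 point per cell type. Stars mark ADIPO and squares the stem cells; ADIPO is highest for 6 of the 10 genes and mESC-2i for the other 4, and all MB points lie at 0.

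Downstream of palmitate, Elovl6 and Scd1 went different ways. Elovl6 was covered most in stem cells, with single H3K18la peaks of 34129 bp in mESC-2i and 28122 bp in mESC-ser that ranked 122 of 19908 and 115 of 19057. Its locus coverage was 50.5% in mESC-2i, 29.7% in mESC-ser, 23.3% in MT, 6.47% in PIM, 5.2% in ADIPO and 1.4% in GAS, with none in MB and BMDM. ADIPO was thus among the lower cell types at Elovl6 although its promoter had a peak of 5627 bp.

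Scd1, the desaturase that makes oleate, had its largest coverage in ADIPO, 78%, where one 14199 bp peak (rank 448) took in nearly the whole gene. The share was 38.4% in mESC-2i, 26.7% in MT, 20% in mESC-ser, 19.6% for GAS and 14.5% for PIM, where no H3K18la lay at the promoter, and none in MB and BMDM. The macrophages held broad H3K27me3 over Scd1, with a peak of 27861 bp in BMDM (rank 550 of 11768) and of 17052 bp in PIM (rank 981 of 15798). H3K27me3 covered 60% and 61.7% of the locus there. In PIM the Scd1 promoter nevertheless also had a 2699 bp H3K4me3 peak. GAS too had an H3K27me3 promoter peak at Scd1, of 3619 bp (rank 13989 of 36400, 10.8% of the locus), beside its H3K18la promoter peak.

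Dgat2, which commits diacylglycerol to storage, had H3K18la promoter peaks in 6 cell types that differed widely in extent. Locus coverage by H3K18la was 85.6% in ADIPO, 16.5% in MT, 15.7% in GAS, 10.6% in PIM, 7.98% in BMDM, 3.28% in mESC-ser and nil in MB and mESC-2i. Dgat2 was the only one of the 10 genes with an H3K18la promoter peak in BMDM. The strongest ADIPO peak, 24582 bp wide (rank 63), ran from 24.4 kb before the first coding start to 0.191 kb after it, and a second of 23003 bp (rank 576) lay between 0.631 and 23.6 kb into the gene. Coverage by H3K27me3 was highest in stem cells, with 72.6% in mESC-2i, 22.9% in mESC-ser, 16.2% in MT, 11.9% in GAS and nil in MB, BMDM and PIM. The mESC-2i H3K27me3 peak was 29520 bp wide, ranked 276 of 24613 and spanned nearly the whole gene body, and the promoter there also carried a 1973 bp H3K4me3 peak.

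**Figure D4:**
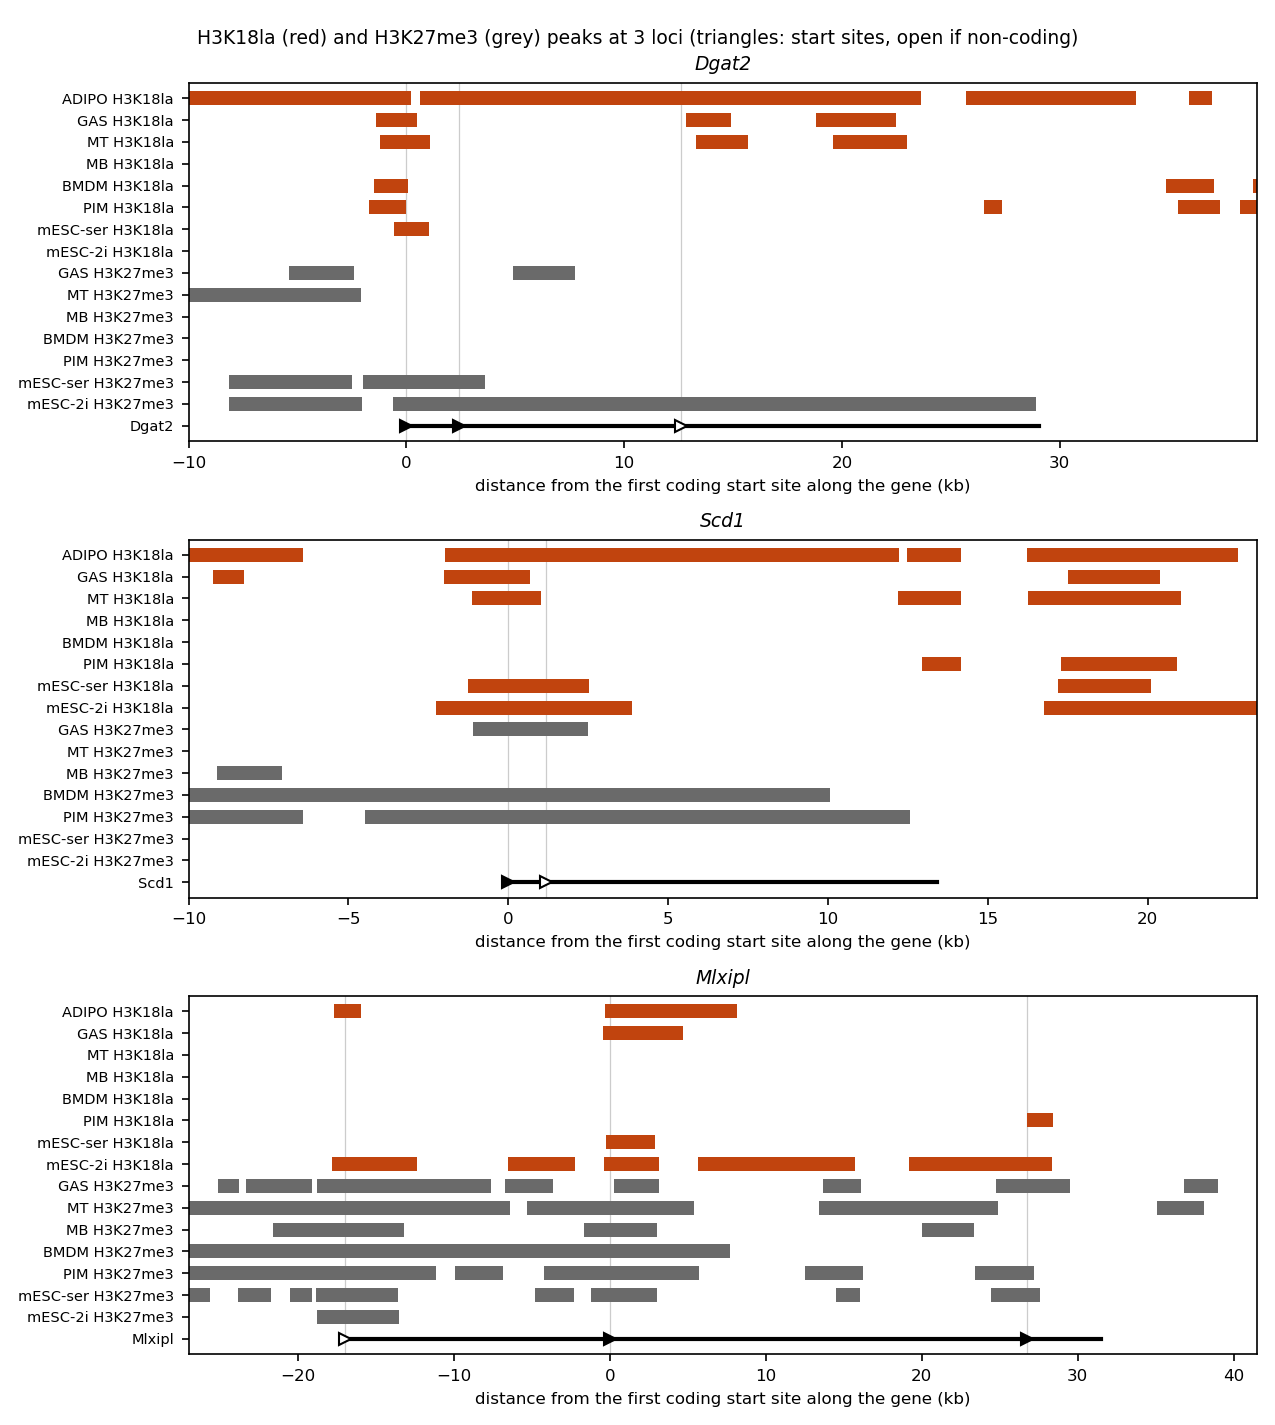
H3K18la peaks (red) and H3K27me3 peaks (grey) at Dgat2, Scd1 and Mlxipl in each cell type, against the distance in kb from the first coding start site along the gene. Black triangles mark coding and open triangles non-coding start sites, H3K27me3 was not profiled in ADIPO, and the grey bars cover Dgat2 in mESC-2i, Scd1 in BMDM and PIM, and the upstream Mlxipl start in all 7 cell types.

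The 2 transcription factors contrasted. Srebf1 had H3K18la promoter peaks in 6 of 8 cell types (not in MB or BMDM), H3K27ac in 5 of 5, H3K4me3 in 4 of 4 and no H3K27me3 promoter peak in 7. One ADIPO H3K18la peak of 34263 bp (rank 48 of 28752) and one H3K27ac peak of 35413 bp (rank 10 of 23089) took in the whole gene, reaching to within 2 kb of a Tom1l2 start. Locus coverage by H3K18la was 83.5% in ADIPO, 61.2% in mESC-2i, 44.4% in mESC-ser, 25% in GAS, 13.5% in MT and 12% in PIM. Srebf1 is known to make SREBP-1a and SREBP-1c from alternative first exons, and the annotation has 8 clusters of starts, 3 of them coding. The coding clusters 1977 and 12116 bp below the first start each lay under H3K18la in the same 5 cell types (ADIPO, GAS, MT, mESC-ser and mESC-2i). The H3K18la lists thus did not separate them. In other lists, a 958 bp H3K27ac peak in BMDM lay over the nearer cluster only, and H3K4me3 in PIM over the farther only.

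Mlxipl had H3K27me3 in more cell types than any other of the 10. Promoter peaks of this mark were found in all 7 cell types, 36381 bp wide in BMDM, 21607 bp in MT, 17515 bp in PIM, 11111 bp in GAS, 8393 bp in MB, 5252 bp in mESC-ser and 5235 bp in mESC-2i. The peaks in MT, BMDM and PIM reached to within 2 kb of a Vps37d start. With the 5000 strongest peaks of each list Mlxipl kept an H3K27me3 promoter peak in 6 cell types (not mESC-2i), and with every list reduced to the same number of bases in 3 (GAS, MB and BMDM). Locus coverage by H3K27me3 ranged from 7.64% in mESC-2i to 66.8% in MT. In mESC-2i, where it was lowest, coverage by H3K18la was highest at 47.4%, against 14.9% in ADIPO, 7.46% in GAS, 4.61% in mESC-ser and 2.49% in PIM. The mESC-2i H3K18la peaks of the locus ranked only 6838 to 18866 of 19908, and mESC-2i had the largest H3K18la coverage for 26.1% of all genes. MB had the next lowest H3K27me3 coverage, 23.9%, and no H3K18la peak at Mlxipl.

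The annotation of Mlxipl begins with a non-coding start 17001 bp before the main one, in the region of the alternative first exon that is known to give the shorter isoform ChREBPβ. All 7 cell types had this start inside an H3K27me3 peak. ADIPO and mESC-2i had it inside an H3K18la peak, of 1737 bp (rank 17342 of 28752) and 5449 bp (rank 18866 of 19908). Peaks of both marks thus lay at this site in mESC-2i, the H3K27me3 one ranked 7303 of 24613. The mESC-2i H3K18la peak was among the weakest of its list. With the 5000 strongest peaks of each list, Mlxipl had neither mark at its promoter in mESC-2i. No H3K27ac or H3K4me3 peak lay within 2 kb of the upstream start in any cell type profiled. At the main start 6 cell types (not mESC-2i) had H3K27me3 within 2 kb. ADIPO, GAS, mESC-ser and mESC-2i had H3K18la there, and of these ADIPO and GAS also had H3K27ac.

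Acaca, the cytosolic carboxylase, had 5 clusters of annotated starts over 150783 bp, and different ones lay under peaks in different cell types. Around the first start H3K18la was present only in mESC-ser and mESC-2i, with peaks of 2374 and 4976 bp that also lay within 2 kb of a start of the divergent neighbour Tada2a. ADIPO had no H3K18la peak there. Its peaks covered the starts 43450, 50159 and 65766 bp further in, the strongest of 10032 bp (rank 1306 of 28752), and no other cell type had an H3K18la peak within 2 kb of any of these 3. GAS and MT had small peaks of 1154 and 1368 bp that missed the last of them by 2039 and 2094 bp, just outside the limit of 2 kb. The counted peaks farthest from a start were an H3K27me3 peak in PIM, 1052 bp from an Acaca start, and one in MT, 661 bp from an Acacb start.

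The starts also differed in sequence and in H3K4me3. Within 500 bp of the first start the GC content was 65.1% with an observed over expected CpG ratio of 0.867, and around the start at 50159 bp 73.3% and 0.833. Both had a CpG island within 2 kb, here a stretch of 200 bp with at least 50% GC and a ratio of at least 0.6, and both had H3K4me3 in all 4 cell types profiled. The starts at 43450 and 65766 bp had 45% and 41.5% GC, ratios of 0.198 and 0.14, no island and no H3K4me3 peak in those 4. They had H3K18la and H3K27ac in ADIPO, where H3K4me3 was not profiled, and the latter of them had H3K27ac in GAS as well. By the same rule, all 10 genes had an island in a promoter window, as did 76.4% of all protein-coding genes.

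**Figure D5:**
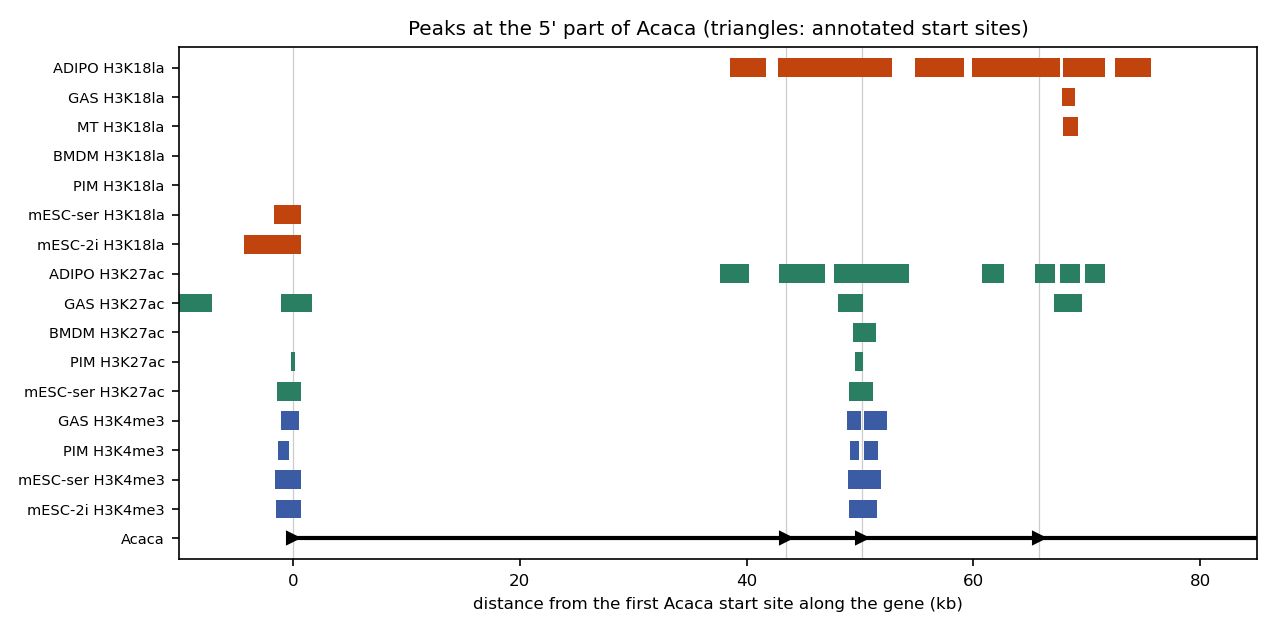
Peaks of H3K18la (red), H3K27ac (green) and H3K4me3 (blue) at the 5′ part of Acaca by cell type, against distance from the first start site in kb, with annotated starts as triangles. ADIPO bars lie over the 3 internal starts and not over the first, while the stem cell H3K18la bars lie over the first start.

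Over the 10 loci, ADIPO had the largest H3K18la coverage of the 8 cell types at 6 genes (Acaca, Acacb, Thrsp, Scd1, Dgat2 and Srebf1), as did 12.5% of all protein-coding genes. The other 4 were highest in mESC-2i, which was highest for 26.1% of all genes. The median coverage of the 10 loci was 44.7% in ADIPO, 34.6% in mESC-2i and 13.2% in mESC-ser. It was 11.6% in GAS, 9.97% in MT, 4.48% in PIM and nil in MB and BMDM. Medians over all genes were 2.41% in ADIPO, at most 1.73% elsewhere and nil in MB, BMDM and mESC-ser.

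Within ADIPO, H3K27ac peaks lay mostly inside H3K18la peaks at these loci. Of the H3K27ac bases, between 86.6% (Acaca) and all (Elovl6) were also H3K18la bases at 9 genes, and 67.8% at Acly. H3K18la covered 97.8% of the Fasn, 85.6% of the Dgat2 and 83.5% of the Srebf1 locus, so a high share had to result there. The same share was not computed over all loci. By promoter, 39.6% of all genes had both marks in ADIPO and 6.47% had H3K27ac without H3K18la. The share of H3K18la bases inside H3K27ac ran from 26.1% at Acly and 44.7% at Acaca to 94.3% at Srebf1. H3K18la covered more bases than H3K27ac at each of the 10 loci, in lists that covered 76.6 and 54.5 Mb in all.

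Whether more promoter bases lay in H3K18la than in H3K27me3 peaks was tested for every gene over the 7 cell types with both marks. The shares of promoter bases covered were compared by flipping the signs of the 7 differences in every way (exact permutation test, two-sided). The smallest p this allows is 0.0156. Cell types stood in for replicates here although MT derive from MB and both stem cell groups from one line, so the differences are not independent. Bases in called peaks do not measure the amount of a mark. In all 7 cell types the H3K27me3 list covered more of the genome than the H3K18la list, 98.7 against 22.6 Mb in BMDM and 86.6 against 82.4 Mb in mESC-ser. List size and mark are therefore not separated in these differences. At an unadjusted p below 0.05, 1546 of 21755 genes (7.11%) had more promoter bases in H3K18la peaks and 1438 more in H3K27me3 peaks. After Benjamini-Hochberg adjustment over all genes none passed 0.05, the smallest adjusted p being 0.234. With so few cell types the smallest possible p is too large for the adjusted test to pass unless a large share of all genes reach it.

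Among the 10 genes Mlxipl had the lowest p and the only negative difference in which most cell types shared the sign. Its promoter bases were covered to 18.1% by H3K18la and 68.2% by H3K27me3. The difference was -50.1 ± 41.1 percentage points (SD over 7 cell types), with H3K18la lower in 6 of 7 (exact p = 0.0313, adjusted p = 0.234). This depended on the size of the lists. With every list reduced to the same number of bases, Mlxipl had H3K27me3 promoter peaks in 3 of the 7 and H3K18la in ADIPO only, which is not among them. For Srebf1 the difference was 35.6 ± 32.7 points, higher in 5 cell types and equal in 2 (exact p = 0.0625, adjusted p = 0.277). Elovl6 differed by 38.6 ± 44.9 points, higher in 4 and equal in 3 (exact p = 0.125, adjusted p = 0.378). Scd1 split evenly, with 3 cell types on either side and a mean of -0.589 ± 78.9 points (exact p = 1). None of these differences passed the adjusted threshold. Over the 5 cell types processed as nuclei, the mean difference was -65.9 points for Mlxipl, 19 for Srebf1, 14 for Elovl6 and -35.4 for Scd1.

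Another 30 genes of the pathway were read in the same way. In ADIPO 27 of the 30 had an H3K18la promoter peak, the exceptions being Fads1, Fads2 and Scap. By role these were 5 of 5 genes supplying citrate, acetyl-CoA and NADPH, 6 of 8 for elongation and desaturation, 6 of 6 for activation and triglyceride assembly and 10 of 11 regulators. The other cell types had 22 (mESC-2i), 21 (MT), 20 (PIM), 19 (GAS), 17 (mESC-ser), 11 (BMDM) and 6 (MB) of 30. Over all 8 cell types this came to 143 of 240 combinations (59.6%) against 31.8% over all genes, whose share in each list is given above, 44.7% in ADIPO. H3K27me3 was scarce, with 16 of 210 combinations (7.62%) against 21.7% over all genes.

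Of the 30, 4 had an ADIPO H3K18la promoter peak and one in at most 2 other cell types. The share of all protein-coding genes that meet this rule is not given here, so the count is a description only. Me1, the malic enzyme that yields NADPH, had it in ADIPO and mESC-2i, with a 1315 bp ADIPO peak. Gpd1, which makes glycerol-3-phosphate, had it in ADIPO, GAS and PIM (6626 bp in ADIPO). Dgat1, the second diacylglycerol acyltransferase, had it in ADIPO, MT and PIM (8428 bp). Mbtps1, the site-1 protease that releases SREBPs, had it in ADIPO and both stem cell lists (1375 bp). H3K18la locus coverage was largest in ADIPO at Me1, Gpd1 and Dgat1, and in mESC-2i at Mbtps1, with 1.95% in ADIPO. H3K27ac promoter peaks were found in 2 of 5 cell types at Me1, 3 at Gpd1, 4 at Dgat1 and 5 at Mbtps1. Scap, the escort protein of SREBPs, had no H3K18la promoter peak in any of 8 cell types, although H3K4me3 was present in all 4 profiled.

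Cell type markers were read from the same H3K18la lists. All 6 adipocyte markers (Adipoq, Plin1, Cidec, Lep, Fabp4, Cfd) had promoter peaks in ADIPO, all 4 stem cell markers in both stem cell lists and in no other, all 5 muscle markers in GAS and MT, and all 5 macrophage markers in BMDM and PIM. MB had 1 of 5 muscle markers, Myod1. BMDM and PIM also had peaks at Adipoq and Fabp4 and at both endothelial markers. MT had them at the macrophage markers Csf1r and Cd68, the endothelial marker Pecam1 and the fibroblast marker Col1a1. Both stem cell lists had them at Cd68, Pecam1 and the fibroblast marker Pdgfra, and MB at Pecam1. ADIPO also had peaks at the macrophage markers Cd68 and Lyz2, the muscle marker Acta1 and the fibroblast marker Col1a1. GAS also had both endothelial and both fibroblast markers and the macrophage marker Csf1r, and the part of these other cells in the GAS values was not tested. Fewer cells with a mark and less of it per cell cannot be told apart in bulk profiles.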

How the data were processed

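CUT&Tag peak lists of 24 groups (41 samples) were used. Per the authors' methods, reads were trimmed, aligned to mm10 with Bowtie2 2.4.4, turned into fragment coverage with bedtools 2.30 and merged over biological replicates. Peaks were called with SEACR 1.3 in stringent mode without a control track, keeping the top 1% of regions. Each deposited list gives total and maximum signal (coverage) per peak in whole numbers that were not scaled for depth, so signal was ranked within a list only. Sequencing depth was not analysed here. The lists held 11002 to 36813 peaks on chromosomes 1 to 19 and X. The stem cell lists named without a medium were taken as mESC-ser from the sample descriptions.

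Promoters (2 kb on each side of a TSS), loci (10 kb flanks) and TSS clusters (within 500 bp) came from GENCODE M21 for 21755 protein-coding genes, promoter sequences from RefSeq (GRCm38.p6). Overlap functions equalled bedtools on simulated intervals, and the sign-flip test was run on simulated data. Python 3.11.15, numpy 2.4.6, pandas 2.3.3 and matplotlib 3.10.9 were used. The 10 genes and the pathway and marker lists were chosen with earlier results of these data known. Named beside the 10 were pathway genes with an H3K18la promoter peak in ADIPO and in at most 2 other cell types, those with H3K27me3 in at least 4 cell types (none met this), and neighbours with a start within 2 kb of a promoter peak. Fads1, Fads2 and Scap were named after their values were seen. Alternatives tried were narrower promoters, coding transcripts only, a larger overlap, smaller lists, other flanks, another rank column and leaving out each cell type.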

Additional observations from a re-analysis of the deposited data

Results flagged for a closer look

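Locus coverage of each gene and mark was checked for a cell type far from the others by Dixon's test, in 36 series of 4 to 8 cell types, and 5 were picked out. For normally distributed values chance alone picks out about 1 in 20 such series. Locus coverages are bounded and often exactly 0, so this rate need not hold here, and the cell types are not replicates of one group. For H3K18la, 3 of 8 values were 0 at Acaca, 3 of 8 at Mlxipl and 2 of 8 at Dgat2. For H3K27me3 at Dgat2, 3 of 7 were 0. Dgat2 had 85.6% of its locus in H3K18la peaks in ADIPO, with 16.5% in the next cell type, and 72.6% in H3K27me3 peaks in mESC-2i, with 22.9% in the next. Acaca had 14.4% in H3K18la peaks in ADIPO against 3.73% in the next. Mlxipl had 47.4% in H3K18la peaks in mESC-2i against 14.9% in the next. Thrsp had 11.6% in H3K4me3 peaks in GAS and none in the 3 other cell types. Any value above 0 would have been picked out there, because the other 3 are exactly 0, so the rate of 1 in 20 does not apply to it.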

How the results depend on the processing

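Promoter counts rested on the depth of the lists. With the 5000 strongest peaks of each list, the promoter peaks of the 10 genes numbered 22 of 80 for H3K18la (45 as deposited, 27.5% against 8.38% of all genes), 22 of 50 for H3K27ac (34, 44% against 16.1%), 20 of 40 for H3K4me3 (36, 50% against 24.9%) and 10 of 70 for H3K27me3 (17, 14.3% against 12.3%). With every list reduced to the 22.6 Mb of the smallest, they numbered 16 for H3K18la (20% against 6.22%), 20 for H3K4me3 (50% against 27.6%) and 5 for H3K27me3 (7.14% against 4.13%), while H3K27ac, with 24 (48% against 22.4%), moved by less than 1.5 times. With H3K18la, ADIPO had all 10 genes under the first reduction (9.16% of all genes) and 8 under the second (4.99%). The other counts fell, under the first and then the second, to 3 and 2 in mESC-ser (9 as deposited), 4 and 3 in mESC-2i (8), 3 and 1 in GAS (7), 0 and 0 in MT (5) and 1 and 1 in PIM (5), while BMDM had 1 and MB 0 throughout. The shares of all genes were 12.3% and 5.54% in mESC-ser, 14% and 3.75% in mESC-2i, 8.3% and 3.37% in GAS, 6.38% and 2.31% in MT, 7.69% and 6.84% in PIM, 4.72% and 18.5% in BMDM and 4.51% and 4.39% in MB. Ranking by maximum signal left 5 of the 10 genes in the strongest 10% of the ADIPO H3K18la list (5.19% of all genes), as against 8, and, in a comparison chosen after seeing the data, 6 as against 9 for H3K27ac (7.29%). Promoters of 1 kb on each side, coding transcripts only and a 200 bp overlap were run on the deposited lists for 3 kinds of count. These were the total per mark, the ADIPO H3K18la promoter peaks and the ADIPO H3K18la peaks in the strongest 10%. Each stayed within 1.5 times its value. The other flanks were run only for the count of genes with their largest H3K18la coverage in ADIPO, which was 6 in each and 8 under both list reductions. The share of all genes is given only for the deposited lists with 10 kb flanks (12.5%), so the rise to 8 has no share to be read against. The sign-flip test called 0 genes after adjustment in each setting (0 to 0), with 53 to 1546 genes higher at an unadjusted p below 0.05 over all 7 cell types. Leaving out 1 cell type gave 538 to 1187 such genes, and the adjusted count of 0 says nothing about stability in any of these settings, since 6 or 7 cell types give too large a smallest p. With the 5 cell types processed as nuclei, values only were computed: Srebf1 moved from 35.6 to 19 points, Elovl6 from 38.6 to 14, Fasn from 23.4 to 6.52, Acly from 14.4 to 5.37, Acacb from 10.1 to 6.51, Thrsp from 14.3 to 20, Mlxipl from -50.1 to -65.9 and Scd1 from -0.589 to -35.4. Acaca turned from 2.9 to -0.935 and Dgat2 from -3.34 to 20.3. No paired analysis was possible because replicates were pooled before peak calling, so pairing by replicate number could not be tried and the sign-flip test pairs marks within a cell type only. Undetected peaks cannot be told from marks below the depth of a list.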
